A study of Danio rerio with 2 samples.

Results

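The complement genes *c4*, *c6*, *c7a*, *c7b*, *cfd* and *serping1* and the clusterin gene *clu* were examined in single cells of the adult zebrafish jaw joint. These 7 genes are the rows of the deposited matrices, out of 36355 features, whose symbol is one of those names, and each name matched 1 row. The cells came from 50 pooled, micro-dissected jaw joints of 3-month-old fish that carried both *sox10:DsRed* and *trps1:eGFP*, so that every cell, whichever its sort, comes from a double transgenic animal. They were sorted for red fluorescence, with or without GFP (the *sox10:DsRed*-enriched library), or for GFP (the *trps1:eGFP*-enriched library). *trps1:eGFP* is a gene trap, which reports the activity of the *trps1* locus, and *sox10:DsRed* is a transgene driven by *sox10* sequence, so that both sorts choose cells by reporter and not by cell type. The study's text in one place gives the second sort as positive for both reporters, and the labels, which name GFP, were followed. No injured joints were among these cells, and each sort gave 1 library.

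Complement is a cascade of secreted proteins of innate immunity. In mammals C4 is cleaved early in the classical and lectin pathways and enters the convertase that cleaves C3, factor D (CFD) cleaves factor B to start the alternative pathway, and C6 and C7 join C5b in the pore-forming membrane attack complex. The C1 inhibitor (SERPING1) blocks the first proteases, and clusterin (CLU), a secreted chaperone, binds the forming attack complex and keeps it out of membranes. Most circulating complement of mammals is made in the liver, with local production by fibroblasts and other cells. Zebrafish carry the C7 gene as *c7a* and *c7b*, and *c4* beside *c4b*. Reads that do not tell such copies apart leave their separate levels uncertain to that extent.

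The *sox10:DsRed*-enriched library held 462 barcodes with a median of 1281.5 UMIs (unique molecular identifiers, which count RNA molecules) and the *trps1:eGFP*-enriched library 4876 barcodes with a median of 3054.5. Cells with 500 to 2000 genes and at most 5% mitochondrial UMIs were kept, 242 in the first and 3919 in the second. Of all barcodes, 16 were listed in both libraries, where the shallower copy had a median of 5.97% of the UMIs of the deeper one. Of these barcodes' cells, 14 were kept, and leaving them out kept each count of members given below. Clustering without any complement gene among the variable features gave 10 fibroblast clusters with 3121 cells. Of these, 3116 came from the *trps1:eGFP*-enriched library. This class was defined by exclusion and holds every cluster not named as a skeletal, ligamentocyte, glial, epithelial, endothelial or other listed type. Smooth muscle cells or pericytes would also fall in it. Decorin (*dcn*) was found in 81.2% of the fibroblast cells and *col1a1a* in 84.7%, against 62.4% and 86.1% of the 367 epithelial-like cells. Their epithelial levels in CPM (the UMIs of a gene relative to all UMIs of the group) were 23.5% and 27.6% of the fibroblast ones. A list of 10 fibroblast genes, with *dcn* and *col1a1a* among them, summed to 5706 to 34817 CPM in single fibroblast clusters. It summed to 3436.5 CPM in epithelial-like, 66410 CPM in osteoblast-lineage and 72070 CPM in ligamentocyte-like cells. Clusters without markers of a named cell type are called here by a leading gene (the *glis1b*, *hspb1*, *ogna*, *fgl1*, *ppp1r1c*, *ctslb*, *coch* and *ccl19a.1* clusters), and 2 more were dermal fibroblast-like, led by *mamdc2b* and by *pck1*. With 1 library per sort there is no replicate, so that no test was made. Intervals are exact 95% intervals for counting error alone (Poisson for CPM, Clopper-Pearson for shares), and differences between clusters of the same cells are descriptions.

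The members divided into several patterns. *c4* and *c6* were highest in a small *ccl19a.1* cluster, *c7b* in the *ppp1r1c* and *glis1b* clusters, *clu* in the *coch* cluster and *cfd* in epithelial-like cells. *c7a* was highest in the *ccl19a.1*, *ctslb* and *ogna* clusters. Its level in epithelial-like cells was lower and could not be separated from that of all fibroblast clusters together. *serping1* had 0 UMIs in every barcode of both libraries.

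**Figure D1:**
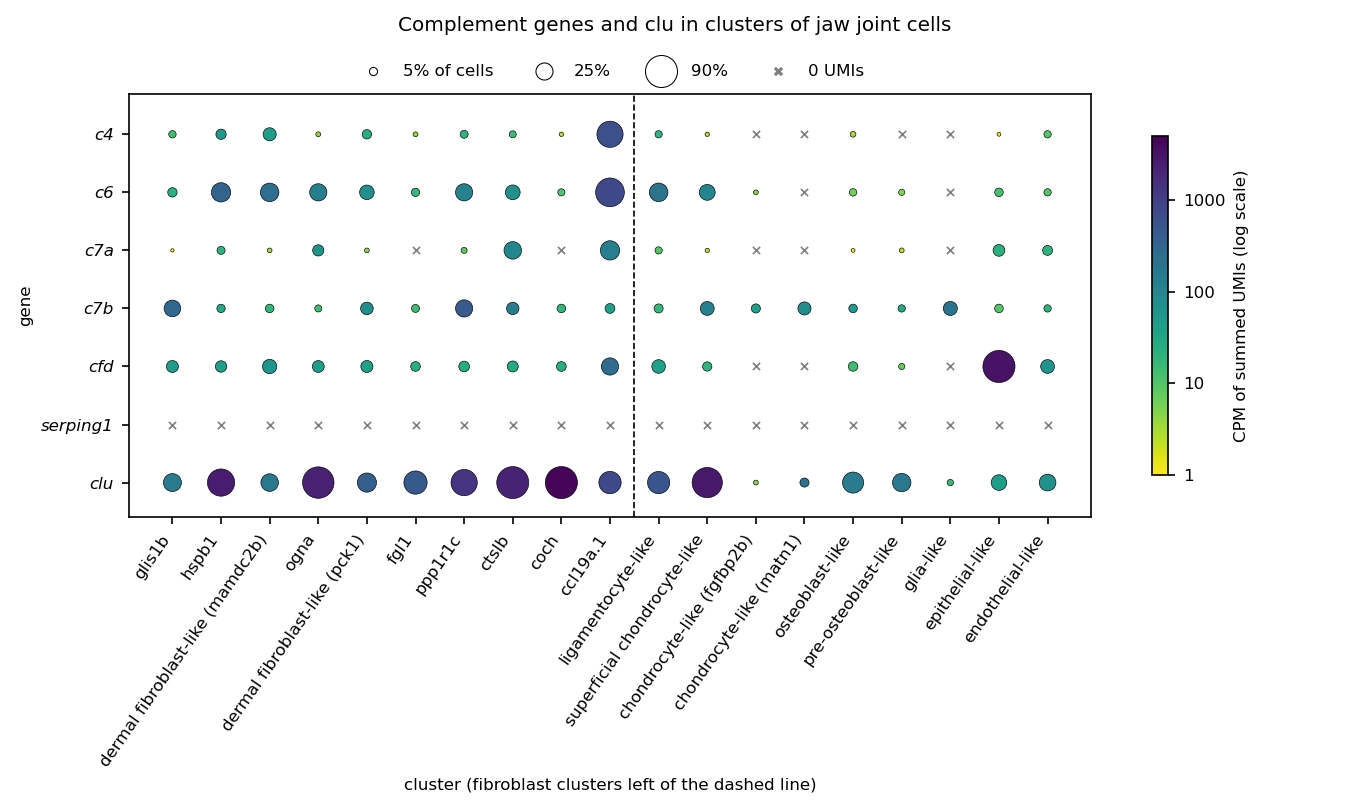
Members (rows) in each cluster (columns), with fibroblast clusters left of the dashed line. The size of a dot gives the percentage of cells positive for the gene, its colour the CPM of the summed UMIs on a log scale, and a cross marks 0 UMIs; *cfd* is largest and darkest in epithelial-like cells (3302 CPM) and *clu* in the *coch* cluster (4612 CPM).

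*c4*, the source of an early convertase subunit, was found almost wholly in fibroblast clusters, which held 97.1% of its 484 UMIs in the kept cells. These clusters held 3121 of the 4161 kept cells, so that most UMIs would lie there under an even spread. Of the 470 *c4* UMIs there, 213 lay in the 90 cells of the *ccl19a.1* cluster. In the *ccl19a.1* cluster, 54 of 90 cells had a *c4* UMI, *c4* was the gene with the second highest fold over all other cells after *ccl19a.1* among genes found in at least 25% of the cluster's cells, and the level was 632 CPM (interval 550 to 723). The next levels were 51.2 CPM in the *hspb1* cluster and 45.2 CPM in the dermal fibroblast-like *mamdc2b* cluster, whose intervals overlap. The *pck1*, *ppp1r1c*, *ctslb* and *glis1b* clusters stood between 13.5 and 25.1 CPM, and the *ogna*, *fgl1* and *coch* clusters between 2.62 and 4.19 CPM on 1 to 5 UMIs each. Epithelial-like cells gave 0.925 CPM (2 UMIs in 367 cells) and osteoblast-like cells 3.18 CPM (4 UMIs in 192 cells). In these cells, taken as background, 0.545% and 2.08% of cells had a *c4* UMI at median depths of 5904 and 5231.5 UMIs, so that the shares of 0.952% to 1.34% in the *ogna*, *fgl1* and *coch* clusters do not stand above background. Both chondrocyte-like clusters had 0 of 76 cells with *c4*, which at 3 counts allows up to 3.95% of cells with a UMI in each, at median depths of 2654.5 UMIs in the *fgfbp2b* cluster and 2444.5 in the *matn1* cluster. This limits cells with a UMI and not cells that express the gene.

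*c6*, which encodes a component of the attack complex, was also highest in the *ccl19a.1* cluster but reached many more cells. Its level there was 798 CPM (706 to 899), with 65 of 90 cells positive (72.2%). The *hspb1* cluster followed at 332 CPM (32.2% of cells), the *mamdc2b* cluster at 234 CPM (29.5%), the *ogna* cluster at 138 CPM (25.5%) and the *ppp1r1c* cluster at 113 CPM (25.5%). The intervals of the *ogna* and *ppp1r1c* clusters overlap, and those of the other neighbours named do not. Levels of 71.1 and 69.0 CPM in the *pck1* and *ctslb* clusters could not be separated, and the *glis1b*, *fgl1* and *coch* clusters were lowest, at 22.7, 16.5 and 10.5 CPM. Epithelial-like cells had 12.5 CPM (8.23 to 18.2), an interval that overlaps those of all 3 clusters. Outside the fibroblast clusters *c6* was found in ligamentocyte-like cells (193 CPM, 29.9% of 77 cells) and superficial chondrocyte-like cells (101 CPM, 21.6% of 116 cells). Osteoblast-like cells had 6.35 CPM, all from cells with 1 UMI.

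Within the *ccl19a.1* cluster both genes were often found in the same cells. Of the 54 cells with *c4*, 87.0% also had *c6*, against 50.0% of the 36 cells without *c4*, although the cells with *c4* were deeper (median 4085 UMIs, against 3091). At least 1 of *c4*, *c6*, *c7a* and *c7b* was detected in 84.4% of the cells of this cluster and at least 2 in 62.2%. Over all fibroblast clusters these shares were 35.6% and 7.63%, and the lowest were 10.5% in the *coch* cluster and 11.6% in the *fgl1* cluster, with 0 cells with 2 or more in either.

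Set against the other fibroblast clusters together, the *ccl19a.1* cluster was at least 2-fold higher for 4 of the 6 members tested (*c4*, *c6*, *c7a* and *cfd*), where 2.15% of all 13817 features passed the same fold. Folds here compare CPM after 10 CPM was added to both sides, which understates the change of low genes. The fold was 19.8 for *c4*, 6.28 for *c6*, 5.37 for *c7a* and 5.09 for *cfd*. The fold of *cfd* rests on 3 cells with 59 of its 85 UMIs in the cluster. Without these cells, which were left out after their values were seen, it was 1.75 and the count was 3 of 6. *c7b* was lower there, at 0.329 of its level in the other clusters, and 2.63% of features were at least 2-fold lower.

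The *ccl19a.1* cluster depended on the clustering. Its 90 cells formed a cluster of their own in 2 of 8 other clustering settings, and in the other 6 most of them joined a larger cluster that also held most of the *hspb1* cells. *c4* in the cluster that held most of the 90 cells was then as low as 115 CPM. A split of the fibroblast cells by a *ccl19a.1* UMI was therefore added after these values were seen. Its gene is the one that leads the cluster, so that the split is not independent of it. Among all 3121 fibroblast cells, the 176 with a UMI of *ccl19a.1*, a gene named as a chemokine, had 302 CPM of *c4* (264 to 344), against 21.9 CPM (19.3 to 24.9) in the 2945 without one. *c6* was 534 CPM in the cells with *ccl19a.1* and 111 CPM in those without. Of the 176 cells 68 belong to the *ccl19a.1* cluster, so that these differences in part restate the cluster. Outside the *ccl19a.1* cluster the 108 cells with a *ccl19a.1* UMI had 79.5 CPM of *c4* (56.5 to 108.7), against 19.9 CPM (17.3 to 22.7), and 357 CPM of *c6*, against 108 CPM. These 108 cells were deeper (median 4545 UMIs, against 3446), and CPM takes the depth into account while shares do not. The clusters of these 108 cells were not read, and the *hspb1* cluster had 332 CPM of *c6*.

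**Figure D2:**
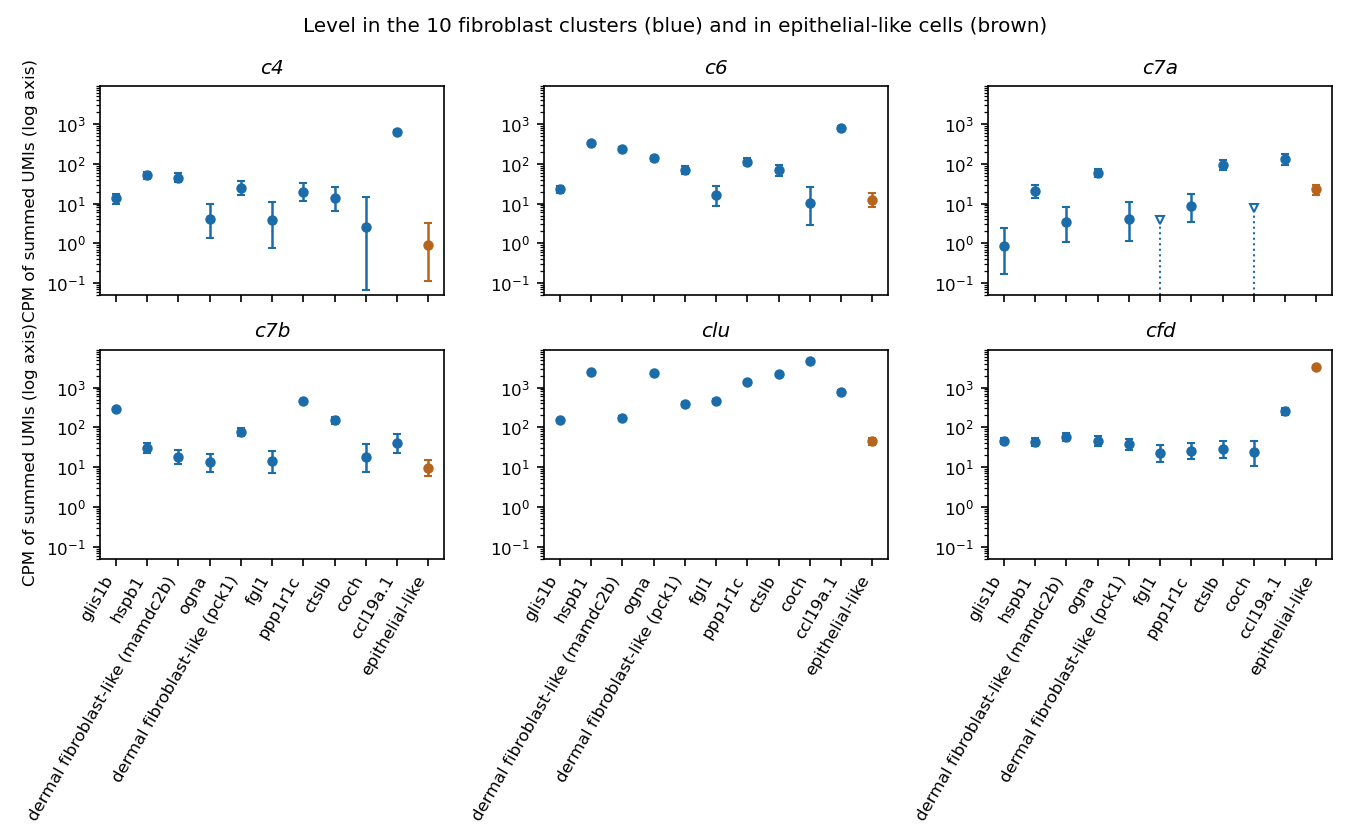
CPM of the summed UMIs (log axis) of 6 members in each fibroblast cluster (blue) and in epithelial-like cells (brown), with exact Poisson 95% intervals; open triangles mark the level of 3 counts where a cluster had 0 UMIs. *c4* in the *ccl19a.1* cluster (632 CPM) lies above every other fibroblast cluster, and *cfd* lies between 22.8 and 57.5 CPM in all fibroblast clusters but that one (252 CPM).

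The 2 copies of the C7 gene, whose mammalian protein anchors the attack complex in the membrane, differed in where they were found. *c7a* had 286 UMIs in the kept cells. Its levels were 131 CPM in the *ccl19a.1* cluster (94.9 to 175), 94.1 CPM in the *ctslb* cluster (71.8 to 121) and 60.4 CPM in the *ogna* cluster (47.2 to 76.0), and the interval of the *ctslb* cluster overlaps both of the others. The *hspb1* cluster had 20.5 CPM, and the other 6 fibroblast clusters 8.67 CPM or less, with 0 UMIs in the *fgl1* and *coch* clusters. Of the 140 cells in the *ctslb* cluster 26.4% had *c7a*. *acta2*, which encodes smooth muscle actin, was 284 CPM in the *ctslb* cluster and 188 CPM in the *ogna* cluster, but 5.93 CPM in the *ccl19a.1* cluster and 16.9 CPM or less in the others. The 8 listed markers of smooth muscle or pericytes summed to 1156 CPM there, against 360 to 1141 CPM in the other fibroblast clusters, and their part in the result was not tested.

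*c7a* was the member whose levels in fibroblast and epithelial-like cells could not be separated. It was found in 4.36% of fibroblast cells and 11.4% of epithelial-like cells (8.37 to 15.2%), and their levels were 19.4 CPM (17.0 to 22.1) and 22.7 CPM (16.8 to 30.0). After thinning to 1000 UMIs per cell the shares were 1.56% and 2.48%. The epithelial CPM of *c7a* was 117% of its fibroblast CPM. For 9 of the 10 listed fibroblast markers, all but *pdgfra*, it was 3.01% (*sfrp2*) to 33.1% (*col1a1b*). Of these markers *sfrp2*, *lum*, *mfap5* and *cxcl12a* stood at 6.28% or less, and *dcn*, *fn1b*, *col1a1a*, *col1a2* and *col1a1b* at 23.5% or more.

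*c7b* had 1888 UMIs in the kept cells, 89.8% of them in fibroblast clusters, which held 3121 of the 4161 kept cells. It was highest in the *ppp1r1c* cluster at 448 CPM (403 to 497) and next in the *glis1b* cluster, the largest fibroblast cluster with 972 cells, at 292 CPM (274 to 310). Positive cells were 25.5% and 23.8% of these clusters. The *ctslb* cluster had 149 CPM, the *pck1* cluster 76.3 CPM (46.2 CPM without 1 cell that held 29 of 73 UMIs), and the other 6 between 13.4 and 41.5 CPM. The highest of these 6, the *ccl19a.1* cluster, had 24.2 CPM without the cell with most UMIs. Against the other fibroblast clusters together *c7b* was 3.49-fold higher in the *ppp1r1c* cluster and 3.36-fold higher in the *glis1b* cluster, where 0.651% and 0.398% of features were at least 2-fold higher. It was the only one of 6 members tested that was at least 2-fold higher in either cluster. The *glis1b* cluster was at least 2-fold lower for *c4*, *c6*, *c7a* and *clu*, where 1.53% of features were, and the *ppp1r1c* cluster for none of the 6 (1.87%).

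Few cells carried most of the *c7b* molecules. In the *ppp1r1c* cluster 12 of 204 cells had 8 or more UMIs, the highest cell had 58, and the top 5% of cells held 71.5% of the UMIs. In the *glis1b* cluster 33 of 972 cells had 8 or more, the highest had 73, and the top 5% held 66.3%. The cells with 8 or more held 268 of 362 UMIs in the *ppp1r1c* cluster and 592 of 1040 in the *glis1b* cluster. The order of these clusters thus rests on few cells, which the counting intervals do not cover. In contrast, all 21 epithelial-like cells with *c7b* had 1 UMI, and their level was 9.71 CPM. The *hspb1* and *mamdc2b* clusters, with 30.7 and 18.5 CPM, had no cell above 6 and 8 UMIs. The *ppp1r1c* cells were not separate in 2 of 8 other clustering settings, where they merged with neighbouring cells.

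*c7b* was also the member with the largest number of positive cells in the *sox10:DsRed*-enriched library, 21 of 242 kept cells. Glia-like cells had 186 CPM (96.0 to 324) from 12 UMIs in 6 of 36 cells, at a median of 1333 UMIs, and 94.98 CPM without the cell that held 6 of them. The chondrocyte-like *matn1* cluster had 81.5 CPM in 11 of 76 cells and the *fgfbp2b* cluster 40.9 CPM in 5 of 76 cells. The 52 osteoblast-lineage cells of the same library had 0 UMIs, which at 3 counts allows up to 9.94 CPM. The 215 of the *trps1:eGFP*-enriched library had 56.6 CPM, but 1 cell held 44 of the 76 UMIs, and without it the level was 24.0 CPM. No cell of the chondrocyte-like clusters had more than 3 UMIs. Superficial chondrocyte-like cells, all from the *trps1:eGFP*-enriched library, had 121 CPM (16.4% of cells), where 1 cell held 25 of 49 UMIs and the level without it was 60.4 CPM.

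**Figure D3:**
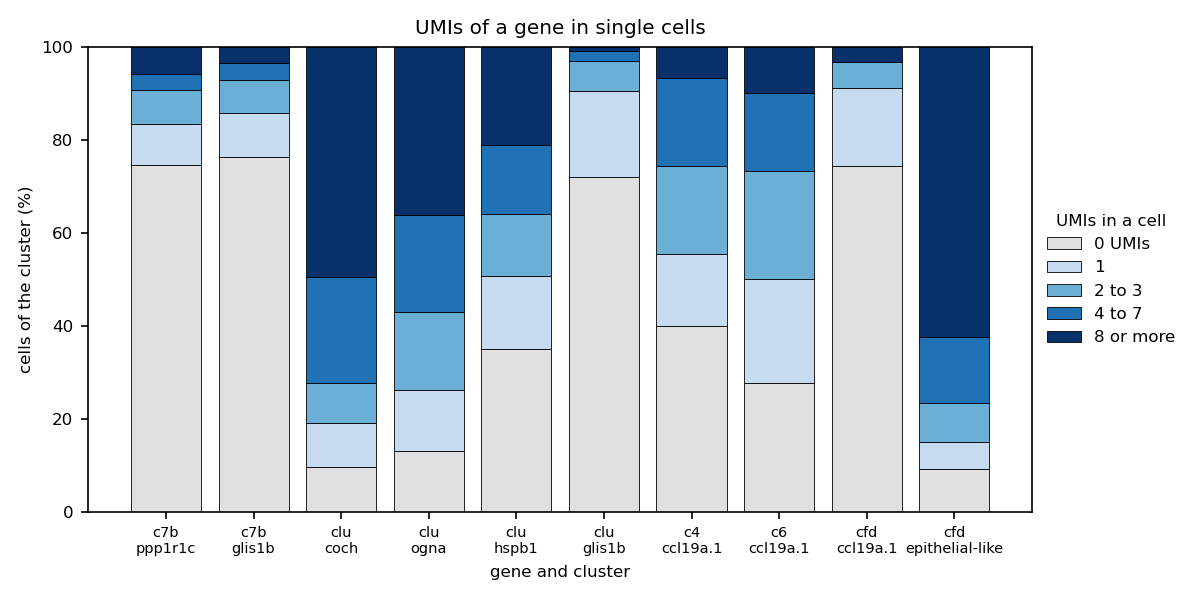
Share of cells (%, stacked to 100) by the number of UMIs of a gene in the cell, for 10 pairs of gene and cluster. *c7b* was absent from most cells of its highest clusters (74.5% and 76.2% with 0 UMIs), whereas 49.5% of *coch* cells had 8 or more UMIs of *clu* and 62.4% of epithelial-like cells 8 or more of *cfd*.

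*clu* was detected in 1824 of the kept cells, with 14677 UMIs, of which 88.2% were in fibroblast clusters. These clusters held 3121 of the 4161 kept cells. The order differed from that of the attack complex genes. The *coch* cluster was highest at 4612 CPM (4399 to 4832; 90.5% of 105 cells). The *hspb1* cluster followed at 2515 CPM (65.0% of cells), and the *ogna* and *ctslb* clusters at 2253 and 2202 CPM, with overlapping intervals and 259 of 298 and 126 of 140 cells positive. The *ppp1r1c* cluster had 1390 CPM, the *ccl19a.1* cluster 786, the *fgl1* cluster 461 and the *pck1* cluster 396. The *mamdc2b* and *glis1b* clusters were lowest, at 173 and 149.7 CPM, with intervals that overlap. With 10 CPM added to both sides, *clu* spanned 28.9-fold between the *coch* and *glis1b* clusters, whose shares after thinning to 1000 UMIs were 81.0% and 11.6%.

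In the *hspb1* cluster the molecules were unevenly spread, with 298 in the highest cell and 48.7% in the top 5% of cells. The corresponding share was 31.0% in the *coch* cluster and 31.5% in the *ogna* cluster. The *hspb1* cluster is led by a heat shock gene, *hspb1*, which is itself on the list of genes of dissociation stress. Genes of this list summed to 27704 CPM there, with 5697 CPM from *hspb1*. They summed to 24155 CPM over all fibroblast clusters and to 28836 CPM in the *mamdc2b* cluster. They summed to 11116 CPM in the *coch* cluster, where *clu* was highest, and to 46416 CPM in the *pck1* cluster, where *clu* was 396 CPM. The part of stress genes in these levels was not tested.

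The complement genes and *clu* were thus present in different proportions in each cluster. Of the cells with any of *c4*, *c6*, *c7a* and *c7b*, 62 of 64 in the *ctslb* cluster and 97 of 103 in the *ogna* cluster also had *clu*. In the *glis1b* cluster 92 of 307 did, and in the *ccl19a.1* cluster 37 of 76. Among all cells of the *ctslb*, *ogna*, *glis1b* and *ccl19a.1* clusters, *clu* was found in 90%, 86.9%, 27.9% and 43.3%. These counts thus mostly reflect how often *clu* was detected in each cluster. In the *coch* cluster 81.9% of cells had *clu* and none of the 4 complement genes. The *coch* cluster was at least 2-fold lower than the other fibroblast clusters for *c4*, *c6*, *c7a* and *c7b* (4.98% of features were) and higher for *clu* (3.25%). The *fgl1* cluster was lower for those 4 genes and *clu* (1.59%) and higher for none (0.789%). The *hspb1* cluster was higher for *c6* and *clu* (0.528%) and lower for *c7b* (1.11%). The *ogna* and *ctslb* clusters were both higher for *c7a* and *clu* (1.33% and 1.87%). The *ogna* cluster was lower for *c4* and *c7b* (2.01%) and the *ctslb* cluster for *c4* (4.39%). Neither dermal fibroblast-like cluster was at least 2-fold higher for any member (1.98% for *mamdc2b* and 1.23% for *pck1*). The *mamdc2b* cluster was lower for *c7a*, *c7b* and *clu* (1.24%) and the *pck1* cluster for *c7a* and *clu* (1.59%).

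Outside the fibroblast clusters *clu* was high in superficial chondrocyte-like cells, at 2902 CPM (2738 to 3073) in 80.2% of 116 cells. The study used *clu* as a marker of superficial chondrocytes in these same cells, so that this level is no independent evidence. This level lies between those of the *coch* and *hspb1* clusters, but 1 cell held 243 of the 1174 UMIs. Without that cell the level was 2359 CPM, below the 2515 CPM of the *hspb1* cluster, which had 2341 CPM without its own highest cell. Ligamentocyte-like cells had 536 CPM in 42.9% of 77 cells. The *fgfbp2b* chondrocyte-like cluster had 1 UMI in 76 cells. The *matn1* cluster had 45 UMIs (204 CPM), but the chondrocyte-like cells of the *sox10:DsRed*-enriched library held only 3 UMIs (7.03 CPM), so that most of the 45 came from the 3 cells of the other library. Of these UMIs 34 lay in 1 cell, without which the *matn1* cluster had 51.3 CPM. Osteoblast-lineage cells split in the same way by library: the 215 cells of the *trps1:eGFP*-enriched library had 188 CPM and the 52 of the *sox10:DsRed*-enriched library 0 UMIs. Sort and cell state cannot be told apart in that difference.

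*cfd*, whose mammalian protein is known as a product of fat cells, was mainly found in epithelial-like cells. Only 7.23% of its 7747 UMIs were in fibroblast clusters. Fibroblast clusters other than *ccl19a.1* had 22.8 to 57.5 CPM, and 7.56 to 17.5% of their cells had a UMI, mostly a single one. Of the epithelial-like cells, 90.7% (87.3 to 93.5%) had *cfd*, at 3302 CPM (3226 to 3380), with 21.4 UMIs per positive cell and 113 in the highest. The fibroblast CPM of *cfd* was 1.44% of its epithelial CPM. The same share was read for 8 of 10 listed epithelial markers, all but *cldne* and *krtt1c19e*. Of these, *epcam*, *krt5*, *cdh1*, *cldni*, *tp63* and *pfn1* stood at 0.496 to 1.62% and *krt91* at 14.2%. *krt4* was higher in fibroblast clusters (1952 CPM) than in epithelial-like cells (123 CPM). The part of free RNA from epithelial-like cells in the *cfd* level of other cells was not tested.

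In the *ccl19a.1* cluster *cfd* reached 252 CPM (201 to 312). Of its 85 UMIs there, 59 lay in 3 cells with 5 or more, 1 of them with 29. Without these 3 cells, which were picked out after their values were seen, the level was 79.9 CPM. Chondrocyte-like and glia-like cells, nearly all from the *sox10:DsRed*-enriched library, had 0 UMIs of *cfd*, with intervals up to 8.36 and 57.1 CPM. The limit in glia-like cells lies above the 47.5 CPM of the fibroblast clusters.

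*serping1*, the C1 inhibitor gene, is listed among the features but was not detected. The 0 UMIs allow, at 3 counts, 0.172 CPM over all barcodes of the *trps1:eGFP*-enriched library and 2.79 CPM over those of the *sox10:DsRed*-enriched library. Such a count says nothing of whether the gene model covers the transcript end that this assay reads.

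Pooled over cell types, the fibroblast clusters were compared with 3 other classes. Against epithelial-like cells of the same library, 4 of 6 members tested were at least 2-fold higher in fibroblast clusters (*c4*, *c6*, *c7b* and *clu*), where 8.78% of 14540 features were, and 1 (*cfd*) was at least 2-fold lower, where 5.25% were. The log2 folds with 10 CPM added were 2.19 for *c4*, 2.72 for *c6*, -0.15 for *c7a*, 2.97 for *c7b*, -5.85 for *cfd* and 4.34 for *clu*. The median of these 6 was 2.45, against 0.16 over all features tested. Without the added CPM the ratio of *c4*, which rests on 2 UMIs in epithelial-like cells, was 42.8 with a counting interval of 11.8 to 354.

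Against osteoblast-lineage cells of the *trps1:eGFP*-enriched library all 6 members tested were at least 2-fold higher in fibroblast clusters, where 7.17% of 14110 features were, and none was lower, where 1.93% were. The log2 fold was 3.09 for *c6*, 2.49 for *clu*, 1.94 for *c4*, 1.36 for *c7a* and 1.21 each for *c7b* and *cfd*, with a median of 1.65 against 0.18 over all features. The last 2 lie near the limit of 1, and *c7a* rests on 2 UMIs in osteoblast-lineage cells (ratio 13.1, interval 3.58 to 109). *c7b* had 56.6 CPM in osteoblast-lineage cells, with 44 of 76 UMIs in 1 cell, and 24.0 CPM without that cell. Its pooled fibroblast level came mostly from the *ppp1r1c* and *glis1b* clusters. All fibroblast clusters but these and the *ctslb* and *pck1* clusters had 13.4 to 41.5 CPM, below the 56.6 CPM. Without *cfd*, most of whose UMIs lie in the epithelial-like cells of this library, the count was 5 of 5.

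Against chondrocyte-like cells the classes came from different libraries, so that class and library cannot be told apart. All 6 members were at least 2-fold higher in fibroblast clusters, where 8.29% of 14046 features were, and none was lower, where 8.09% were. For *c4*, *c7a* and *cfd* the call rests on 0 UMIs in a class with far fewer UMIs than the fibroblast clusters. The log2 fold was 6.02 for *clu*, 3.59 for *c6* and 1.22 for *c7b*. *c7b* had 56.2 CPM in chondrocyte-like cells, above all fibroblast clusters but the *ppp1r1c*, *glis1b*, *ctslb* and *pck1* clusters. *clu* rests on 3 UMIs in chondrocyte-like cells, for a ratio of 156 with an interval of 53.5 to 758, and *c6* on 1 UMI. *c4*, *c7a* and *cfd* had 0 UMIs in chondrocyte-like cells and passed the filter on counts through their fibroblast UMIs alone. Against a floor of 3 UMIs over that class, without added CPM, they were at least 5.65-fold, 2.77-fold and 6.78-fold higher. These bounds are not on the scale of the calls, for which 10 CPM was added. The floor is 7.03 CPM. With 10 CPM added to both sides, *c7a* at 19.5 CPM would fall short of 2-fold against it. The median log2 fold of the members was 2.42, against 0.12 over all features, and the folds of those 3 genes depend on the CPM added. With the mean CPM of single cells in place of summed UMIs, the log2 fold of *c7b* was 0.98 in this comparison and the count of members 5. Without *cfd* the count of the comparison was 5 of 5. The epithelial-like cells, where *cfd* is highest, lie in the *trps1:eGFP*-enriched library, as nearly all fibroblast cells do, whereas the chondrocyte-like cells of this comparison are from the other library.

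**Figure D4:**
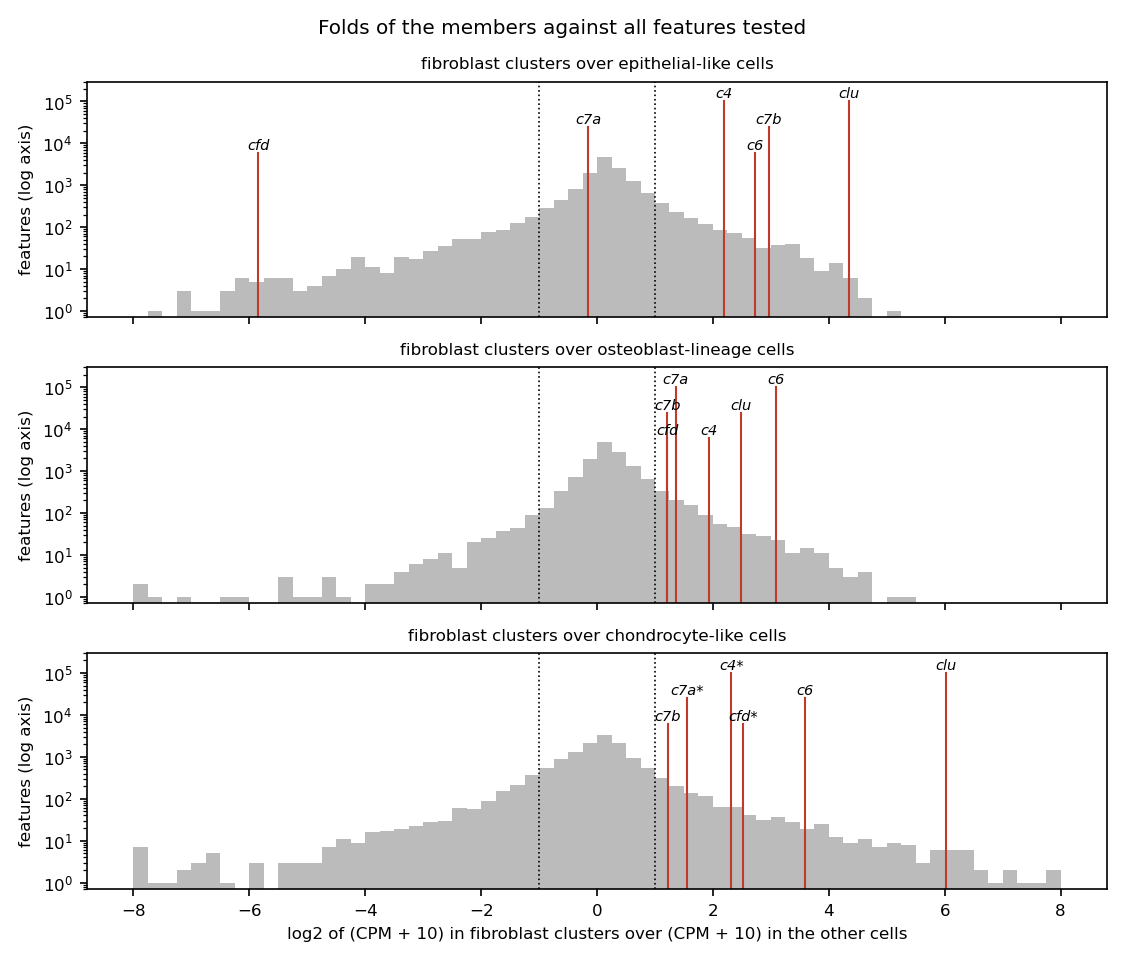
Distribution of log2 folds of all features tested (grey, counts on a log axis, folds beyond 8 placed in the end bins) in 3 comparisons, with the members as red lines and dotted lines at 2-fold. Asterisks mark genes with 0 UMIs in the second class, whose fold depends on the 10 CPM added; *cfd* stands apart at -5.85 against epithelial-like cells.

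Other genes of the complement system were read from a list of 60, the 7 members included, of which 49 are in the feature list, 34 had a UMI in the kept cells and 15 had at least 10. Of the 7 genes of the attack complex on the list 6 had a UMI, and *c9* had 0. Over all kept cells *c8a* had 1 UMI, *c8b* 6 and *c8g* 13, so that only *c6*, *c7a* and *c7b* had more. Among the genes of the central step and its convertases, *c5* and *cfb* had 0 UMIs, and no copy of *c3* reached 10. Of the 42 others in the feature list, 7 could be tested against epithelial-like cells, 8 against osteoblast-lineage cells and 7 against chondrocyte-like cells, and the same 3 were at least 2-fold higher in fibroblast clusters each time: *c4b*, *cfp* (properdin, which stabilizes the alternative convertase in mammals) and *cpn1* (a carboxypeptidase that inactivates the released peptides in mammals). *rca2.1*, named as a regulator of complement activation, had 98.0 CPM in fibroblast clusters, against 252 CPM in chondrocyte-like cells, and was the only gene of the 42 that was at least 2-fold lower in any of the 3 comparisons. The distribution of *c4b* was not that of *c4*. *c4b* was highest in the *ctslb* cluster at 73.7 CPM (18.6% of cells) and had 11.9 CPM in the *ccl19a.1* cluster. *cfp* was highest in the *pck1* cluster at 85.7 CPM and *cpn1* reached 149.9 CPM in the *hspb1* cluster. *c1s*, the gene of a first protease of the classical pathway, was highest in the *ctslb* cluster too, at 32.9 CPM. The intervals of these highest levels of *cfp*, *cpn1* and *c1s* overlap those of the *ppp1r1c* and *ccl19a.1* clusters. Of the membrane regulators, *rca2.1* stood at 68.2 to 115 CPM in every fibroblast cluster, and at 98.5 CPM in epithelial-like cells. *cd59* and *rca2.2* stood elsewhere. *cd59*, whose mammalian protein blocks the attack complex on the cell surface, was 13.1 CPM or less in fibroblast clusters, against 913 CPM in glia-like cells, and *rca2.2* was 2.62 CPM or less, against 789 CPM in endothelial-like cells. *cfi* and *c8g* did not exceed 7.87 and 2.09 CPM in any cluster.

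Markers of leukocytes and hepatocytes were low in the fibroblast clusters, whereas epithelial markers summed to more. The part of RNA from such cells in the levels of the members was not tested. A list of 12 leukocyte genes, 8 of them with a UMI, summed to 5.25 to 71.6 CPM in the fibroblast clusters, highest in the *hspb1* cluster and 20.8 CPM in the *ccl19a.1* cluster, and to 741 CPM in epithelial-like cells. A list of 9 hepatocyte genes, 4 with a UMI, summed to 0 to 4.77 CPM, and to 0 CPM in the *ccl19a.1* cluster. A list of 10 epithelial genes, all 10 with a UMI, summed to 4528 CPM over the fibroblast clusters. Single fibroblast clusters had 1220.5 CPM (*coch*) to 6246.5 CPM (*glis1b*), and epithelial-like cells 62321 CPM. In the *trps1:eGFP*-enriched library most of the fibroblast sum came from *krt91* (2208 CPM) and *krt4* (1952 CPM), and *krt4* was only 123 CPM in epithelial-like cells. The fibroblast levels of *epcam*, *krt5*, *cdh1*, *cldni*, *tp63* and *pfn1* were 0.496 to 1.62% of the epithelial ones.

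For each member the genes with the most similar pattern were sought over 18 clusters, by Pearson's r of log2(CPM + 10) among 4573 genes with at least 200 UMIs. The clusters share their library and their depth, so that r is a description. *c4* was most like *fgl2b* (0.88), *loxl1* (0.88) and *anos1a* (0.86), which all had their highest level in the *ccl19a.1* cluster. *c6* was most like *abi3bpa* (0.88), *angptl7* (0.88) and *sost* (0.87). *c7a* was most like *rspo3* (0.88), *zgc:92161* (0.83) and *ccl19a.1* (0.81). *c7b* had no close match, with 0.74 for *trib3*, 0.71 for *rab7a* and 0.67 for *serpinb1l1*. *cfd* was most like *plk2a* (0.95), *zgc:77439* and *ppp1r1b* (0.91 each), all highest in epithelial-like cells, and *clu* most like *pak1* (0.87), *cd28l* (0.85) and *ldb2b* (0.83). Between members, r was 0.82 for *c4* with *c6* and 0.83 within the 10 fibroblast clusters. For *c7b* it lay between -0.35 and -0.01 with every other member over 18 clusters.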

How the data were processed

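The deposited files hold raw UMI counts per gene and barcode, made by the authors with Cell Ranger 3.0.0 on GRCz11 (per the labels) and with the DsRed and GFP sequences added. Cells had 500 to 2000 genes and at most 5% mitochondrial UMIs. Counts were log-normalized in Seurat 5.3.0 (R 4.3.3). All listed complement genes and *clu* were left out of the 2000 variable features, and the mitochondrial share was regressed out on scaling. The neighbour graph used 38 of 50 components, with Louvain clustering at a resolution of 0.9. Epithelial-like and endothelial-like cells were set apart first, and osteoblast and chondrocyte cells were subclustered at 0.2 and 0.5. Naming a cluster took 3 or more markers of a type, each found in 5% of the cells or more and raised 2-fold or more over all others, and the names may differ from those of the study. Scrublet (scanpy 1.11.5) marked 1 of 462 and 0 of 4876 barcodes and so did not work, and an alternative left out its top 5%.

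UMIs were summed over cells and given as CPM. Folds were taken after adding 10 CPM, for features with at least 10 UMIs over both classes, and called at 2-fold. Intervals and thinning to 1000 UMIs were computed with scipy 1.17.1 and numpy 2.4.6 (Python 3.11.15). Clustering, folds, thinning and intervals were tested on simulated data. With 1 library per sort no p-value was computed. The members and lists were chosen with earlier results of these data known. Named genes are the members, genes of the complement list with at least 10 UMIs (or counts for the rest), naming markers, leading genes of clusters and the 3 genes most like each member. Alternatives changed the resolution, dimensions, cell limits, variable features, doublets, added CPM, summing, filter, UMI minimum, depth and library. Leaving out barcodes in both libraries, *cfd*, or single cells with many UMIs of a gene was added after the data were seen. No sequence or coordinate is given.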

Additional observations from a re-analysis of the deposited data

Results flagged for a closer look

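Some members were also found in barcodes outside the limits on cells, which no comparison used. In the 957 such barcodes of the *trps1:eGFP*-enriched library *c4* stood at 40.7 CPM, *c6* at 177 CPM, *c7a* at 34.0 CPM, *c7b* at 49.6 CPM, *cfd* at 276 CPM and *clu* at 499 CPM, each above the level that a count of 0 allows (2.22 CPM). In the 220 such barcodes of the *sox10:DsRed*-enriched library *c7b* stood at 344 CPM (274 to 426), above the 43.4 CPM of the kept cells of that library. All 84 of these UMIs came from 42 barcodes with under 500 genes, with a median of 783 UMIs over the 215 of that kind and 12 in the highest. In the same 220 barcodes *cfd* stood at 209 CPM, from 51 UMIs in 1 barcode with over 2000 genes.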

How the results depend on the processing

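The 3 counts of members that were at least 2-fold higher in fibroblast clusters were 4, 6 and 6, and over 13 alternatives each they stayed within 1.5 times those values. They were equal except for 5 members against chondrocyte-like cells with the mean CPM of single cells and, without *cfd*, 5 members against osteoblast-lineage cells and 5 against chondrocyte-like cells. Of 216 log2 folds of single members under alternatives, 9 left an approximate counting interval around the main value and 0 changed sign. This interval is wide for genes with 0 UMIs in chondrocyte-like cells. There *c4* moved from 2.31 to 5.35 with 1 CPM added and still counted as inside, so that few moves could be seen for such genes. Levels moved more with the clustering: 29 of 60 values of a member left their interval when read in the cluster that held most cells of its highest fibroblast cluster. Read in this way *c4* ranged from 115 to 651 CPM, *c6* from 332 to 824 CPM, *c7a* from 31.1 to 131 CPM, *c7b* from 157 to 651 CPM and *cfd* from 62.3 to 254 CPM, with the lowest value of each at a resolution of 0.6, and *clu* from 4475 to 4618 CPM. The main highest cluster supplied the largest part of the highest fibroblast cluster in all 8 clustering settings for *clu* and in 6 for *c7b*. It did so in 3 for *c4* and in 2 each for *c6*, *c7a* and *cfd*. For *c4* these include the limit of at least 200 genes, where the highest cluster had 35 cells and 207 CPM. Only 21 of these cells were *ccl19a.1* cells, and 67 of the 90 *ccl19a.1* cells lay in another cluster. With a minimum of 2 UMIs *c4* was in 2.85% of fibroblast cells, against 7.24% with 1 UMI. No paired analysis was possible because each sort has 1 library. The *sox10:DsRed*-enriched library is shallow, and in its 35 glia-like and 149 chondrocyte-like cells low levels were not detectable. Over both libraries, 0 UMIs gave an interval up to 57.1 CPM in glia-like and up to 8.36 CPM in chondrocyte-like cells.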
